A study of Mus musculus with 9 samples.

Results

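The genes described here encode the protein subunits of the mitochondrial ribosome in cultured mouse cardiac fibroblasts. They were taken by symbol, as the rows named Mrpl or Mrps followed by a number and at most 1 letter, which gave 78 of the 56953 genes in the deposited table. By symbol, 49 belong to the large subunit (Mrpl) and 29 to the small subunit (Mrps). The series held 9 polyA RNA libraries, 3 in each of 3 groups, from heart fibroblasts of adult wildtype C57BL/6N male mice. The cells were isolated by enzymatic digestion of perfused hearts, depleted of cardiomyocytes by settling, grown in 10% fetal bovine serum and infected for 72 h. The Ad-GFP group received an adenovirus expressing green fluorescent protein, the Ad-JP2 group one expressing junctophilin-2 (JP2), and the Ad-shJP2 group one expressing a short hairpin RNA against junctophilin-2. All 3 groups therefore carried an adenovirus, and no uninfected cells were analysed here. The labels do not say whether the 3 replicates of a group were separate cultures or animals, so p-values may measure technical spread only.

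The mitochondrial ribosome translates the few messages encoded in mitochondrial DNA, all of which specify subunits of the respiratory chain and ATP synthase. Its ribosomal RNAs are encoded in mitochondrial DNA, whereas all of its proteins are encoded in the nucleus, made in the cytosol and imported. The large subunit forms peptide bonds and contacts the inner membrane through its exit tunnel, and the small subunit holds the messenger RNA and decodes it. Compared with its bacterial ancestor, the particle has lost RNA and gained proteins, so that its members are either counterparts of bacterial ribosomal proteins or specific to mitochondria. Symbols do not always give the position: structures place Mrps18a and Mrps30 in the large subunit, and Mrps36 in the 2-oxoglutarate dehydrogenase complex rather than the ribosome.

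The promoters of the 4 members with the largest passed rise and fall of each subunit in the Ad-shJP2 libraries are shown as the sequences from which the most changed messages start. Each runs 5′ to 3′ from 250 bases before to 50 bases after the annotated start, on the gene's own strand, from RefSeq (GRCm38.p6). Capitals mark the core of the ETS family site, CCGGAA or TTCCGG on the other strand, and the YY1 core AAGATGG. Mrpl46 and Mrps27 had the largest rises of the large and small subunit, and Mrpl1 and Mrps31 the largest falls.
Mrpl46, chr7:78783040-78783339, minus strand: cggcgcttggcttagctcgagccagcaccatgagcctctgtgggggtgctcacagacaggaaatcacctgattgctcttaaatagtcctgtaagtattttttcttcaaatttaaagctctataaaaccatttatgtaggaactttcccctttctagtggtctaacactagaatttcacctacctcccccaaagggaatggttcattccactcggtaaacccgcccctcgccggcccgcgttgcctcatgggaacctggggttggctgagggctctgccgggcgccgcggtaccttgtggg
Mrpl1, chr5:96209865-96210164, plus strand: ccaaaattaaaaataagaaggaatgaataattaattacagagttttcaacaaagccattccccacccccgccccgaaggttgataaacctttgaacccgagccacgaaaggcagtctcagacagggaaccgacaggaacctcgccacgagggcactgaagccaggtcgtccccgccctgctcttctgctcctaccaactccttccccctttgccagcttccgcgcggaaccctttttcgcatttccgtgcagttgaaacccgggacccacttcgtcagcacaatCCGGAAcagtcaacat
Mrps27, chr13:99344536-99344835, plus strand: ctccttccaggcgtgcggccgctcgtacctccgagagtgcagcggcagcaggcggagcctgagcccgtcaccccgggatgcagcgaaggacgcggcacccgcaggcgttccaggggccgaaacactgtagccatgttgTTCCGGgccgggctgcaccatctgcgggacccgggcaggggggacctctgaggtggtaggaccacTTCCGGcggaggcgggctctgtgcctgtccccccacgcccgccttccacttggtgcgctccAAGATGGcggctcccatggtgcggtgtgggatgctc
Mrps31, chr8:22411090-22411389, plus strand: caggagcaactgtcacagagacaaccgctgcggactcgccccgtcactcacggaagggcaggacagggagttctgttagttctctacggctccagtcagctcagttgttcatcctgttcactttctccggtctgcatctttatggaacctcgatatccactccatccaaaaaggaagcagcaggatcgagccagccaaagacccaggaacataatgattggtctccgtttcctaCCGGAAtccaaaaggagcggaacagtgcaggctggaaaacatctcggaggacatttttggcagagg
The ETS core is the letter sequence bound by the GABP factor, a known regulator of nuclear genes for mitochondrial proteins. It was present in the printed windows of Mrpl1, Mrps27 and Mrps31 and not in that of Mrpl46. Of the 69 members with an entry in the promoter table, 39 (56.5%) held CCGGAA on either strand, against 15.2% of all 27025 promoters and 29.1% of the 9432 promoters of tested genes. The YY1 letters AAGATGG were found in 13 (18.8%), against 6.48% and 7.44% of those backgrounds. The TATA letters TATAAA were found in 4 members (5.8%), against 14.2% and 7.04%. By subunit, CCGGAA was in 24 of 43 large and 15 of 26 small members. By outcome in the Ad-shJP2 libraries it was in 11 of 25 members that rose, 5 of 8 that fell and 23 of 36 that did not pass. These are matches of letters in a window, counted on both strands, and the motifs were chosen after expression values were seen.

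Jph2, the target of both junctophilin viruses, stood at 132, 128 and 128 TPM (transcript abundance scaled for gene length and library) in the Ad-GFP libraries, at 737, 691 and 637 TPM in Ad-JP2 and at 116, 123 and 119 TPM in Ad-shJP2. It was higher in Ad-JP2 by 2.40 on the log2(TPM + 1) scale (limma adjusted p = 3.07e-08), whereas the difference of -0.11 in Ad-shJP2 did not pass (limma adjusted p = 0.0724). That difference passed without Ad-JP2 replicate 1 or 3 (adjusted p = 0.0297 and 0.018), with only the 6 libraries compared (adjusted p = 0.0165) and after quantile normalization (-0.13, adjusted p = 0.0243), and it was 0.09 (adjusted p = 0.0545) after a GC and length correction. The RNA level of the target therefore does not check the knockdown label firmly, and Ad-shJP2 below refers to the libraries labelled so. Approximate depth was 40.2 to 45.8 M reads in Ad-GFP, 37.1 to 41.0 M in Ad-JP2 and 21.3 to 33.2 M in Ad-shJP2, read from the steps that low values take. The 10 fibroblast markers summed to 11282 to 11379 TPM in Ad-GFP, 11164 to 11911 in Ad-JP2 and 7329 to 7563 in Ad-shJP2. The 10 cardiomyocyte markers summed to 27.7 to 43.0 TPM over all libraries, with 8 of them under the filter for testing. The 11 macrophage and leukocyte markers, all tested, summed to 3143 to 3174 TPM in Ad-GFP, 2891 to 2937 in Ad-JP2 and 3646 to 3696 in Ad-shJP2, so the cultures held transcripts of other cells. In Ad-shJP2 7 of these 11 rose and 3 fell, where 21.8% of all genes tested rose and 37.7% fell. Among the 11 were Lyz2 (0.23, limma adjusted p = 4.38e-06) and Mrc1 (-1.62, limma adjusted p = 4.65e-08).

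All 78 mitochondrial ribosomal protein genes passed the filter for testing (at least 1 TPM in at least 3 libraries). Their mean levels over the 9 libraries ran from 2.6 to 381 TPM with a median of 46.1 TPM, against a median of 12.2 TPM over the 14215 genes tested. The median was 45.0 TPM for the large and 46.6 TPM for the small subunit. The products of both subunits are built into 1 particle in fixed numbers. Mrpl52 (381 TPM), Mrpl33 (279 TPM) and Mrpl54 (234 TPM) were the most abundant large subunit messages, and Mrps21 (227 TPM), Mrps23 (126 TPM) and Mrps12 (101 TPM) the most abundant of the small subunit. At the other end were Mrpl1 (2.6 TPM), Mrpl23 (3.37 TPM) and Mrpl47 (6.8 TPM), followed in the small subunit by Mrps31 (7.24 TPM), Mrps22 (14.7 TPM) and Mrps27 (19.3 TPM). The lowest levels rested on few reads, about 48 to 179 for Mrpl1, 34 to 102 for Mrpl23, 106 to 298 for Mrpl47 and 73 to 311 for Mrps31. Reads of Mrpl23 may also be split with a more abundant pseudogene row, given below. Within a group the members' median coefficient of variation was below that of all genes tested. It was 4.12%, 4.36% and 4.46% in Ad-GFP, Ad-JP2 and Ad-shJP2, against 6.13%, 6.77% and 7.81% over all genes tested. The members' median level was also the higher one, and genes of like level were not compared.

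Summed over the 78 genes, the message level was 4973, 4958 and 4954 TPM in the Ad-GFP libraries, 4701, 4659 and 4751 TPM in Ad-JP2 and 5203, 5232 and 5229 TPM in Ad-shJP2. The 3 groups did not overlap: every Ad-JP2 library lay below, and every Ad-shJP2 library above, the Ad-GFP libraries. Relative to the Ad-GFP mean the change was -5.2% in Ad-JP2 and 5.23% in Ad-shJP2. Both subunits moved by like amounts, the large by -5.25% and 5.57% and the small by -5.1% and 4.53%. The ratio of summed large to summed small messages was 2.03 ± 0.0295 (SD, n = 3) in Ad-GFP, 2.03 ± 0.0303 (SD, n = 3) in Ad-JP2 and 2.05 ± 0.0117 (SD, n = 3) in Ad-shJP2, with overlapping libraries. With Mrps18a and Mrps30 counted as large and Mrps36 left out, the ratios were 2.24, 2.22 and 2.28. The summed macrophage and leukocyte markers moved in the same order as the summed members (Ad-JP2 -7.59%, Ad-shJP2 16.3%). Taken singly these 11 markers were split, since 2 rose and 3 fell in Ad-JP2, where 13.4% of all genes tested rose and 1.64% fell. Mrc1 had 1.22 there (limma adjusted p = 4.19e-06) and Lyz2 -0.15 (limma adjusted p = 0.000331). The summed fibroblast markers ran the other way (Ad-shJP2 -34.4%, Ad-JP2 2.93%), though their Ad-JP2 libraries overlapped those of Ad-GFP. The part of either shift in the members' values was not tested. In bulk RNA, fewer cells of a type and less RNA per cell cannot be told apart.

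**Figure D1:**
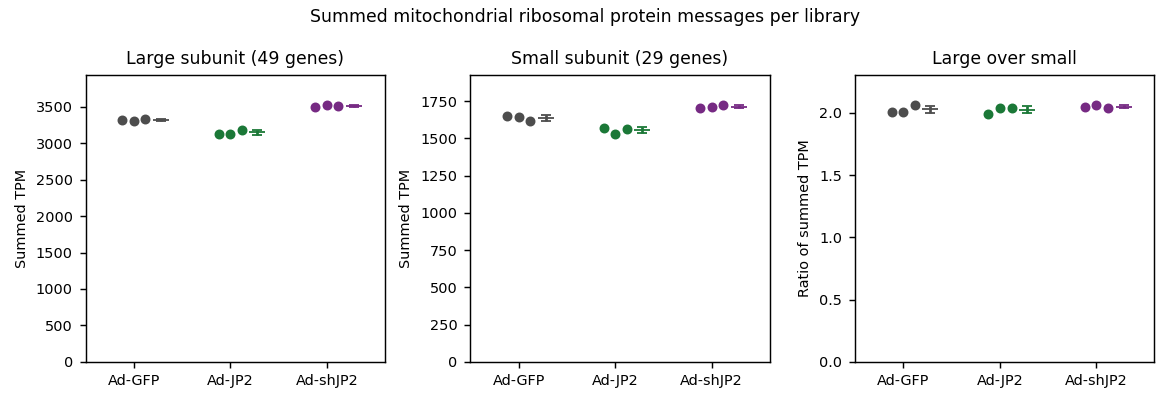
Summed TPM per library (y axis) of the 49 large subunit genes, the 29 small subunit genes and their ratio, by virus group (x axis); points are libraries and the bar beside them is the mean ± SD (n = 3). Both sums are lowest in Ad-JP2 and highest in Ad-shJP2, while the ratio stays between 1.99 and 2.06 in all 9 libraries.

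The comparison of Ad-JP2 with Ad-GFP asked what overexpression of junctophilin-2 did to these genes. Few of them passed the test. Of the 78, 1 rose and 4 fell, where 13.4% of all genes tested rose and 1.64% fell (limma, adjusted p under 0.05). By subunit the counts were 1 rise and 3 falls among 49 large and 0 rises and 1 fall among 29 small members. The direction was nevertheless mostly 1 way: 63 of 78 differences were negative, where 6590 of the 14215 genes tested were. The median difference was -0.07 (large -0.06, small -0.07) against 0.01 for all genes. Libraries did not overlap for 22 members that were lower and 2 that were higher, where 9.74% and 22.4% of all genes did so. The differences in this comparison were small, from -0.35 to 0.32 on the log2 scale. An unadjusted limma p under 0.05 was found for 15 of the 78 members and for 3650 of the 14215 genes tested.

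Mrps18a, a paralogue of the bacterial protein S18 that sits in the large subunit, stood at 55.3, 56.7 and 55.9 TPM in Ad-GFP and at 47.6, 50.0 and 51.2 TPM in Ad-JP2. All 3 Ad-JP2 libraries lay below all 3 Ad-GFP libraries, and the log2 fold change was -0.17 ± 0.036 (SE, limma adjusted p = 0.0108). Mrpl52, the most abundant member and specific to mitochondria, fell from 396, 403 and 409 TPM to 365, 372 and 363 TPM (log2 fold change -0.14, limma adjusted p = 0.00401). Mrpl54, a mitochondria-specific protein of the large subunit, fell from 241, 239 and 243 TPM to 219, 225 and 212 TPM (log2 fold change -0.14, limma adjusted p = 0.00568). Neither pair of groups overlapped for these abundant messages.

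Mrpl55 fell from 45.4, 45.8 and 44.6 TPM to 41.1, 40.1 and 41.9 TPM (log2 fold change -0.14, limma adjusted p = 0.0267). This call was lost on leaving out Ad-GFP replicate 1, 2 or 3 (adjusted p = 0.0839, 0.0953 and 0.057) or Ad-JP2 replicate 1 or 2 (adjusted p = 0.0682 and 0.0979). Mrpl47, a protein at the rim of the exit tunnel, was the member that rose, from 6.97, 6.02 and 6.2 TPM to 8.41, 8.17 and 8.11 TPM (log2 fold change 0.32, limma adjusted p = 0.0284). It too did not overlap between the groups. Its call was lost without Ad-GFP replicate 2 or 3 (adjusted p = 0.103 and 0.0936) and without Ad-JP2 replicate 1, 2 or 3 (adjusted p = 0.0883, 0.0792 and 0.0648), and it had 0.18 (adjusted p = 0.144) after quantile normalization. Mrpl1, next to it in size at 0.30 (limma adjusted p = 0.206), had 3.69, 3.73 and 3.13 TPM in Ad-JP2 against 2.62, 2.93 and 2.49 TPM.

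The downward shift in Ad-JP2 changed with a correction for the composition of the genes. The members are short, with a median length of 970.5 bases against 1985 bases for all genes tested, and across the 78 members the difference in Ad-JP2 correlated with length (Pearson r = 0.45, Spearman rho = 0.41, n = 78 genes from the same libraries, given as a description). After a correction of each library for GC content and length, the members' median was 0.01 and that of all genes -0.02. Of the 4 falls, Mrpl52 then turned to 0.03, Mrpl54 had 0.00, Mrpl55 -0.02 and Mrps18a -0.06, none of them passing. Under that setting 8 of the 78 members fell, where 7.97% of all genes did.

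**Figure D2:**
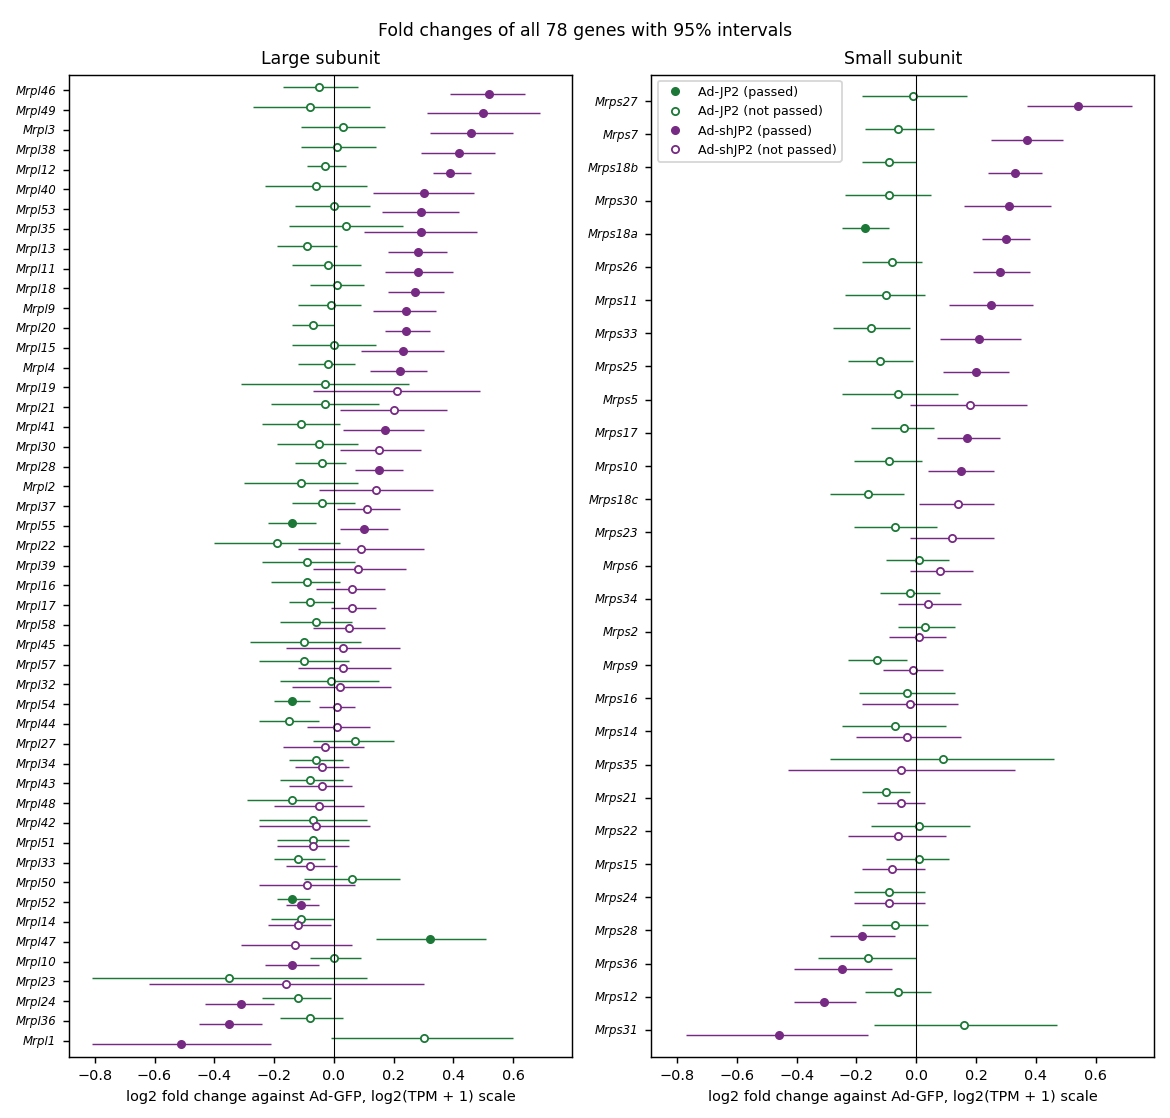
Log2 fold change against Ad-GFP (x axis, log2(TPM + 1) scale) of each of the 49 large (left) and 29 small (right) subunit genes (y axis), for Ad-JP2 (green) and Ad-shJP2 (purple); bars are 95% intervals from limma and filled points passed adjusted p under 0.05. Most Ad-JP2 points lie a little below 0 with 5 filled, while Ad-shJP2 points spread from -0.51 to 0.54 with 29 filled on the right of 0 and 9 on the left.

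The comparison of Ad-shJP2 with Ad-GFP gave more and larger changes among the members, in both directions. Here 29 of the 78 rose, 9 fell and 40 did not pass, where 21.8% of all genes tested rose and 37.7% fell (limma, adjusted p under 0.05). The median difference of the members was 0.08 and that of all genes -0.11. Large and small subunits gave like counts, with 18 rises and 5 falls among 49 large members and 11 rises and 4 falls among 29 small members, and each had a median of 0.08. By structure the counts were 20 and 5 of 51 for the large and 9 and 3 of 26 for the small subunit. Libraries did not overlap for 32 members that were higher and 11 that were lower, against 24.5% and 40.9% of all genes. Since both comparisons use the same Ad-GFP libraries, their values are set side by side only.

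The scale bears on the size of these counts. Under median-of-ratios scaling, which moved the median of all genes from -0.11 to -0.02, 45 members rose and 5 fell, and the genes tested split into 29.2% higher and 30.5% lower. The members' median was 0.10 after the GC and length correction, 0.14 after quantile normalization and 0.19 after median-of-ratios scaling. Without Ad-shJP2 replicate 1, the shallowest library by approximate depth, 31 members rose and 8 fell, where 20.3% and 35.5% of all genes did.

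The S18 paralogues, of which mammals have 3, were all above Ad-GFP in mean. Mrps18b, a small subunit protein, stood at 65.4, 66.9 and 63.4 TPM in Ad-shJP2 against 52.2, 49.5 and 53.3 TPM in Ad-GFP (log2 fold change 0.33, limma adjusted p = 6.95e-05). Mrps18a stood at 67.6, 70.0 and 70.2 TPM against 55.3, 56.7 and 55.9 TPM (log2 fold change 0.30, limma adjusted p = 8.29e-05). In both genes every Ad-shJP2 library lay above every Ad-GFP library. Mrps18c, at 0.14, did not pass (limma adjusted p = 0.0541) and its libraries overlapped. Mrps18a and Mrpl55 were the members called in opposite directions in the comparisons with Ad-GFP. Mrpl55 rose by 0.10 in Ad-shJP2 (limma adjusted p = 0.0304), to 47.8, 50.3 and 48.1 TPM, a call that was lost without Ad-GFP replicate 1, 2 or 3 (adjusted p = 0.0672, 0.0521 and 0.0926) or Ad-shJP2 replicate 2 (adjusted p = 0.0975) and that turned to -0.04 after the GC and length correction.

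Proteins of the central protuberance, the top of the large subunit that faces the small one, held the largest rise of that subunit. Mrpl46 stood at 25.6, 22.8 and 23.2 TPM in Ad-shJP2 against 16.4, 16.5 and 16.2 TPM in Ad-GFP. The groups were far apart beside a spread of 0.116 TPM (SD, n = 3) in Ad-GFP and 1.54 TPM (SD, n = 3) in Ad-shJP2, and the log2 fold change was 0.52 (limma adjusted p = 3.98e-05). Mrpl38, also of the protuberance and specific to mitochondria, rose from 22.5, 26.1 and 25.2 TPM to 33.1, 33.6 and 32.6 TPM (log2 fold change 0.42, limma adjusted p = 0.000157). For this group 6 members were listed, Mrpl18, Mrpl27, Mrpl38, Mrpl40, Mrpl46 and Mrpl48. Of these 6, 4 rose and 0 fell, with a median of 0.29, beside 21.8% and 37.7% of all genes. Mrpl27 (-0.03) and Mrpl48 (-0.05) did not pass. The role groups used here, and the further members named within them, were chosen after the values were seen. They do not list every protein of a region, so their counts hold for the listed members only.

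The stalks, mobile arms of the large subunit that guide transfer RNAs and translation factors, split. Mrpl12, the factor-recruiting stalk protein, rose from 84.7, 84.5 and 87.5 TPM to 115, 109.8 and 113 TPM (log2 fold change 0.39, limma adjusted p = 3.54e-06), with no overlap. Mrpl11, at the base of that stalk, rose by 0.28 (limma adjusted p = 0.00115). Mrpl10, which anchors Mrpl12, fell from 51.1, 50.7 and 48.3 TPM to 44.0, 46.8 and 45.0 TPM (log2 fold change -0.14, limma adjusted p = 0.0114), and had -0.03 (adjusted p = 0.511) under median-of-ratios scaling. Mrpl1, of the stalk on the opposite side, had the largest fall among the members, from 2.62, 2.93 and 2.49 TPM to 1.92, 1.1 and 1.78 TPM (log2 fold change -0.51, limma adjusted p = 0.00877). Its libraries did not overlap, but its difference was 0.05 (adjusted p = 0.777) after the GC and length correction and -0.29 (adjusted p = 0.102) after quantile normalization. Its GC content is 40.8% and its length 2914 bases.

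Around the peptidyl transferase centre, where peptide bonds form, 2 of 4 members rose and 0 fell, beside 21.8% and 37.7% of all genes. Mrpl3 rose from 55.5, 60.1 and 56.6 TPM to 87.0, 72.6 and 79.1 TPM (log2 fold change 0.46, limma adjusted p = 0.000168). Mrpl4, grouped here although its protein also lines the exit tunnel, rose by 0.22 (limma adjusted p = 0.00196). Its difference was 0.08 (adjusted p = 0.132) after the GC and length correction. Mrpl2 (0.14) and Mrpl16 (0.06) did not pass. Apart from Mrpl4, 5 members were listed for the exit tunnel and its membrane contact. Of these 5, 0 rose and 1 fell, with a median of -0.13, against the same shares. The fall was that of Mrpl24, from 30.6, 33.9 and 33.6 TPM to 27.1, 25.7 and 25.4 TPM (log2 fold change -0.31, limma adjusted p = 0.000522). Mrpl45, the protein that contacts the inner membrane, stood at 18.4 ± 2.08 TPM (SD, n = 3) in Ad-GFP and 18.8 ± 1.32 TPM (SD, n = 3) in Ad-shJP2, with overlapping libraries.

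Among large subunit members not listed in these role groups, Mrpl49 rose from 23.1, 19.8 and 19.2 TPM to 29.9, 31.6 and 27.3 TPM (log2 fold change 0.50, limma adjusted p = 0.000812). Mrpl36, one of the smallest ribosomal proteins, fell from 49.2, 46.4 and 47.5 TPM to 37.9, 35.2 and 38.9 TPM (log2 fold change -0.35, limma adjusted p = 0.000164). Neither gene overlapped between the groups. Mrpl52 fell by 0.11 to 369, 383 and 370.5 TPM (limma adjusted p = 0.00403), and its difference was 0.01 (adjusted p = 0.763) under median-of-ratios scaling. Mrpl54, which had fallen in Ad-JP2, stood at 242, 245 and 240.4 TPM in Ad-shJP2 and overlapped Ad-GFP.

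In the small subunit the largest rise was that of Mrps27, a mitochondria-specific protein with pentatricopeptide repeats, from 17.0, 14.8 and 18.2 TPM to 26.5, 24.1 and 23.7 TPM (log2 fold change 0.54, limma adjusted p = 0.000241). Mrps7, a protein of the head that contacts transfer RNA, rose from 50.6, 46.2 and 45.1 TPM to 63.1, 58.2 and 62.7 TPM (log2 fold change 0.37, limma adjusted p = 0.000237). Mrps30, placed in the large subunit by structure, rose from 20.0, 18.5 and 19.0 TPM to 22.1, 25.3 and 24.4 TPM (log2 fold change 0.31, limma adjusted p = 0.00309). In all 3 genes every Ad-shJP2 library lay above every Ad-GFP library.

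The falls of the small subunit were led by Mrps31, at 4.15, 6.27 and 5.6 TPM against 7.74, 8.26 and 6.97 TPM (log2 fold change -0.46, limma adjusted p = 0.0151). That call was lost without Ad-GFP replicate 2 (log2 fold change -0.41, adjusted p = 0.0532) after the GC and length correction (-0.17, adjusted p = 0.313) and after quantile normalization (-0.21, adjusted p = 0.205). Mrps12, the decoding-site protein, fell from 114, 106 and 107 TPM to 92.6, 84.6 and 86.8 TPM (log2 fold change -0.31, limma adjusted p = 0.000489). Its fall left no overlap and concerned one of the most abundant small subunit messages. Mrps28 fell from 44.6, 39.3 and 42.4 TPM to 37.8, 36.0 and 37.2 TPM (log2 fold change -0.18, limma adjusted p = 0.0117), and did not pass under median-of-ratios scaling (-0.07, adjusted p = 0.277).

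Mrps36, the member that belongs to the 2-oxoglutarate dehydrogenase complex, fell from 45.7, 41.3 and 45.4 TPM to 34.7, 40.4 and 36.0 TPM (log2 fold change -0.25, limma adjusted p = 0.016). Its call was lost without Ad-GFP replicate 1 or 3 (adjusted p = 0.0554 and 0.0537) or Ad-shJP2 replicate 1 or 3 (adjusted p = 0.0574 and 0.0501), and its difference was -0.09 (adjusted p = 0.322) after the GC and length correction and -0.14 (adjusted p = 0.12) under median-of-ratios scaling. Reads may also be split between it and the rows Mrps36-ps1 (25.1 TPM in Ad-GFP) and Mrps36-ps2 (40.7 TPM). The same holds for Mrpl23 at 4.3, 3.85 and 3.39 TPM in Ad-GFP, whose pseudogene row Mrpl23-ps1 stood at 113 TPM.

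**Figure D3:**
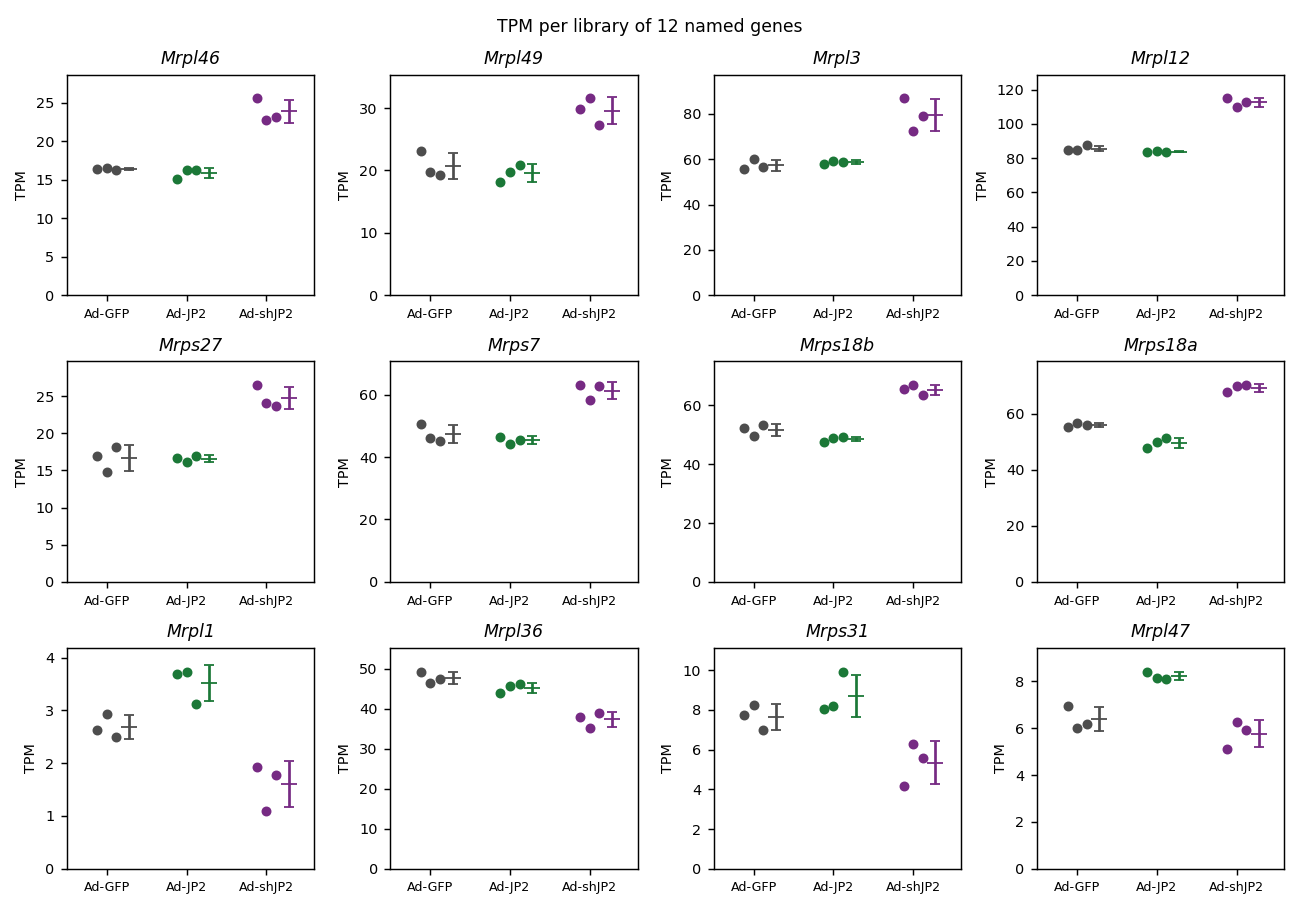
TPM per library (y axis, from 0) of 12 named members by virus group (x axis); points are libraries and the bar beside them is the mean ± SD (n = 3). In the first 8 panels the Ad-shJP2 points lie above the Ad-GFP points, and in the panels of Mrpl1, Mrpl36 and Mrps31 below them; in that of Mrpl47 the Ad-JP2 points are the high ones.

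By ancestry, 16 of 46 members with a bacterial counterpart rose in Ad-shJP2 and 6 fell, with a median of 0.09. Of the 31 mitochondria-specific members 13 rose and 2 fell, with a median of 0.08. The shares over all genes were 21.8% and 37.7%. In summed TPM the mitochondria-specific proteins of the small subunit moved most, from 449.8, 477 and 445 TPM in Ad-GFP to 502, 537 and 508 TPM in Ad-shJP2 (12.8%), while the bacterial counterparts of that subunit overlapped between the groups (1080.4, 1053 and 1052 TPM against 1080.3, 1037 and 1083 TPM, 0.44%). For the large subunit by structure the summed change was 8.16% for bacterial counterparts and 3.04% for mitochondria-specific proteins, the reverse order. The difference between these classes was not tested.

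Set directly against each other, the Ad-JP2 libraries had 7 members higher and 42 lower than the Ad-shJP2 libraries, where 40.3% and 24.1% of all genes were (limma, adjusted p under 0.05). The median difference of the members was -0.17 and that of all genes 0.10. Of the 49 large members 5 were higher and 27 lower, and of the 29 small members 2 were higher and 15 lower. Mrpl49 (-0.57, limma adjusted p = 0.000271), Mrpl46 (-0.56, limma adjusted p = 1.64e-05) and Mrps27 (-0.55, limma adjusted p = 0.00018) were the furthest below. Mrpl1 (0.81, limma adjusted p = 0.000551), Mrps31 (0.63, limma adjusted p = 0.00274) and Mrpl47 (0.45, limma adjusted p = 0.00104) were the furthest above, all 3 of them members at low TPM. After the GC and length correction 18 members were higher, where 29.1% of all genes were higher and 33.6% lower. The members' median was then -0.12 and that of all genes -0.03. Of the members called in this comparison 30 kept their call, 12 no longer passed and 7 changed sign. Among those that changed sign, Mrpl54 (0.15, limma adjusted p = 0.000372) and Mrpl17 (0.09, limma adjusted p = 0.0269) passed in the other direction. The difference for Mrpl1 turned to -0.23 (adjusted p = 0.149) and that for Mrps31 was 0.10 (adjusted p = 0.549). After quantile normalization Mrps31 had 0.24 (adjusted p = 0.149) and Mrpl47 0.06 (adjusted p = 0.48).

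Several members share their start region with a gene on the other strand. By the reference annotation of GRCm38.p6, 21 members formed 20 pairs with starts within 300 bases of each other, a window chosen after values were seen, and in 18 pairs both genes were tested. In Ad-shJP2, both genes of 4 pairs were called in the same direction, 0 pairs were called in opposite directions, 10 pairs had 1 gene called and 4 neither. Over all genes tested 21.8% rose and 37.7% fell in Ad-shJP2, and 13.4% and 1.64% in Ad-JP2. Between Ad-JP2 and Ad-shJP2 40.3% were higher and 24.1% lower. Facing pairs without a member were not counted, so whether facing genes moved together more than other genes was not tested. In Ad-JP2 against Ad-GFP 1 pair had 1 gene called and 17 neither. Between Ad-JP2 and Ad-shJP2 5 pairs were called the same way and 3 in opposite directions, Mrpl30 with Mitd1, Mrpl37 with Cyb5rl and Mrpl2 with Klc4, while 8 had 1 gene called and 2 neither. Without Ad-JP2 replicate 2 these members, Mrpl30, Mrpl37 and Mrpl2, did not pass (adjusted p = 0.0548, 0.0713 and 0.0837). Mrpl46 faces Mrps11, another member, with 42 bases between their starts. Mrps11 rose from 30.0, 32.8 and 31.6 TPM to 39.4, 39.4 and 34.1 TPM (log2 fold change 0.25, limma adjusted p = 0.006), less than Mrpl46, and had 0.11 (adjusted p = 0.123) after the GC and length correction. Both genes of this pair were higher in every Ad-shJP2 library than in any Ad-GFP library. Mrpl49 faces Fau, which encodes a cytosolic ribosomal protein (0.33, limma adjusted p = 8.64e-05), Mrps7 faces Gga3 (0.74, limma adjusted p = 0.0206) and Mrpl18 faces Tcp1, a chaperonin subunit (0.17, limma adjusted p = 0.000737).

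Other pairs did not move alike. Mrps27 rose while Ptcd2, a mitochondrial RNA-binding protein whose start lies 108 bases away, had -0.11 (limma adjusted p = 0.292). Mrpl43 had -0.04 (limma adjusted p = 0.471) while Twnk, the mitochondrial DNA helicase 116 bases away, rose by 0.58 (limma adjusted p = 0.000612). Mrps12 fell while Sars2, the mitochondrial seryl-tRNA synthetase 147 bases away, had -0.04 (limma adjusted p = 0.798). The library kit kept the strand, but whether the counting used it is not given in the sources used here, so reads of facing genes that overlap may be shared.

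Further genes of mitochondrial translation were read from lists, to be set beside the 21.8% of all genes that rose and 37.7% that fell in Ad-shJP2, with 13.4% and 1.64% in Ad-JP2. Among 6 tested genes with other names that were listed with the mitoribosome, 1 rose and 2 fell in Ad-shJP2. Dap3, a small subunit GTP-binding protein, rose by 0.16 (limma adjusted p = 0.0209). Ptcd3, a pentatricopeptide protein of the small subunit, fell by 0.58 (limma adjusted p = 6.96e-06), having risen by 0.23 in Ad-JP2 (limma adjusted p = 0.00933). Ndufab1, the mitochondrial acyl carrier protein rather than a ribosomal protein, fell by 0.43 in Ad-shJP2 (limma adjusted p = 0.000766). Among 28 assembly and rRNA modification factors 5 rose and 3 fell in Ad-shJP2 and 1 rose in Ad-JP2. Mrm3, an rRNA methyltransferase, rose by 0.65 (limma adjusted p = 0.0066) and Mterf3, a factor needed for assembly, fell by 1.24 (limma adjusted p = 2.1e-05), both in Ad-shJP2. Gtpbp10, an assembly GTPase, rose by 0.90 in Ad-JP2 (limma adjusted p = 0.0023). Mterf3 had means of 6.39 TPM in Ad-GFP and 2.15 TPM in Ad-shJP2, and Gtpbp10 1.16 TPM in Ad-GFP and 3.08 TPM in Ad-JP2. Their GC content is 44.0% and 42.3%, against a median of 50.9% for all genes tested. Neither was examined after the GC and length correction.

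Among 18 translation factors and messenger-handling proteins, 2 rose and 0 fell in Ad-JP2, and 3 rose and 6 fell in Ad-shJP2, beside 13.4% and 1.64% of all genes in the former comparison and 21.8% and 37.7% in the latter. Mtif2, the initiation factor that brings the first transfer RNA, rose by 0.91 in Ad-JP2 (limma adjusted p = 0.00167) and fell by 1.39 in Ad-shJP2 (limma adjusted p = 2.25e-05). Its level was low, with means of 3.39 TPM in Ad-GFP, 7.28 TPM in Ad-JP2 and 0.694 TPM in Ad-shJP2. Its GC content is 43.9%, and it was not examined after the GC and length correction. Of 20 genes that charge mitochondrial transfer RNAs, 3 rose and 5 fell in Ad-shJP2, beside the same shares. They are aminoacyl tRNA synthetases and the amidotransferase subunits Qrsl1, Gatb and Gatc. Yars2, a synthetase, rose by 0.49 (limma adjusted p = 2.47e-05) and Gatc, an amidotransferase subunit, fell by 0.54 (limma adjusted p = 8.04e-05).

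The genes of the respiratory chain and ATP synthase, some of whose subunits the mitochondrial ribosome makes, divided by genome. The 75 nuclear respiratory chain and ATP synthase genes had 0 rises and 12 falls in Ad-JP2 (median -0.07), and 22 rises and 8 falls in Ad-shJP2 (median 0.04). Over all genes 13.4% rose and 1.64% fell in Ad-JP2, where 21.8% rose and 37.7% fell in Ad-shJP2. Their summed level was 18802 to 18946 TPM in Ad-GFP, 17871 to 18094 in Ad-JP2 and 19661 to 19839 in Ad-shJP2, changes of -4.59% and 4.82% beside the -5.2% and 5.23% of the ribosomal proteins. The mitochondrially encoded messages, which the mitochondrial ribosome translates, ran the other way. Of 12 tested, 7 rose and 0 fell in Ad-JP2, and 0 rose and 11 fell in Ad-shJP2, with summed changes of 22.6% and -36.6%. For mt-Nd5 the difference was 1.02 in Ad-JP2 (limma adjusted p = 2.7e-05) and -1.86 in Ad-shJP2 (limma adjusted p = 7.61e-08). The median GC content was 37.4% for the mitochondrially encoded and 51.4% for the nuclear genes, against 50.9% for all genes tested. Their median lengths were 870.5 and 679 bases, against 1985 bases. Neither list was examined after the GC and length correction.

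**Figure D4:**
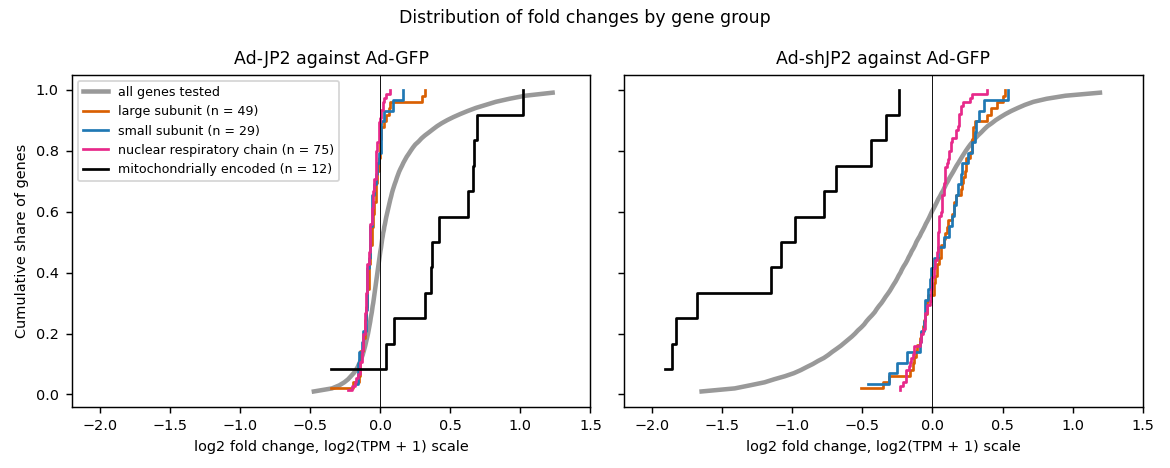
Cumulative share of genes (y axis) against log2 fold change (x axis, log2(TPM + 1) scale) in Ad-JP2 (left) and Ad-shJP2 (right) against Ad-GFP, for all genes tested (grey) and 4 gene groups. The curves of the large and small subunit lie close to each other in both panels, and the 12 mitochondrially encoded messages lie mostly to the right of them on the left panel and to the left of them on the right panel.

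Of 13 tested genes for mitochondrial DNA transcription and upkeep, 4 rose and 2 fell in Ad-shJP2 and 1 fell in Ad-JP2. Polg, the DNA polymerase, rose by 0.45 (limma adjusted p = 0.0047) and Tfb2m, a transcription initiation factor, fell by 1.49 (limma adjusted p = 0.000132), both in Ad-shJP2. Among 9 tested regulators of mitochondrial genes, 4 rose and 1 fell in Ad-JP2, and 3 rose and 5 fell in Ad-shJP2. For both lists the shares over all genes are those given above, 21.8% and 37.7% in Ad-shJP2 and 13.4% and 1.64% in Ad-JP2. Nrf1, a factor for nuclear genes of mitochondrial proteins, rose by 0.58 in Ad-shJP2 (limma adjusted p = 0.00043), as did the nuclear receptor Esrra by 0.53 (limma adjusted p = 8.28e-06). Gabpa, the DNA-binding subunit of GABP, rose by 0.47 in Ad-JP2 (limma adjusted p = 0.00582) and fell by 0.51 in Ad-shJP2 (limma adjusted p = 0.000805), and Sp1 rose by 1.00 (limma adjusted p = 0.00016) and fell by 1.22 (limma adjusted p = 6.3e-06).

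**Figure D5:**
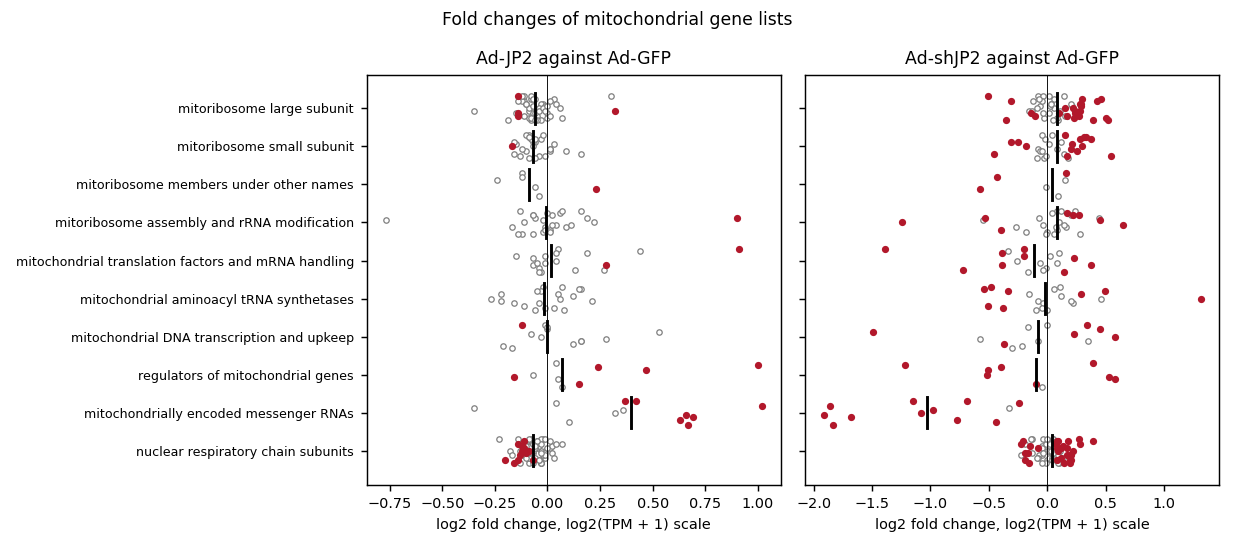
Log2 fold change (x axis, log2(TPM + 1) scale) of each gene of 10 groups (y axis) in Ad-JP2 (left) and Ad-shJP2 (right) against Ad-GFP; red points passed limma's adjusted p under 0.05, open points did not, and the black line is the group's median. Both mitoribosome rows and the nuclear respiratory chain row cluster within narrow ranges near 0, while the mitochondrially encoded row has 11 of its 12 genes to the right of 0 in Ad-JP2 and all 12 to the left in Ad-shJP2, with medians of 0.39 and -1.03.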

How the data were processed

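The authors deposited 1 table of TPM values (abundance scaled for gene length and library) for the 9 libraries, with each gene's length and effective length. GRCm39, Salmon, DRAGEN and DESeq2 appear in the submitters' processing notes. Roles and versions, like the use of strand in counting, are not given in the sources used. Because the deposited values are TPM and no counts, no count test was run. TPM is relative within a library, and reads of near-identical copies may be split among them.

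Values were taken as log2(TPM + 1), a scale that understates the fold changes of low genes. Genes with at least 1 TPM in at least 3 libraries, 14215 of 56953 (29601 were at 0 in all 9), were fitted with limma 3.58.1 in R 4.3.3, using 3 group means and a mean-variance trend over all 9 libraries. Two-sided p-values were Benjamini-Hochberg adjusted across the tested genes; calls are those with adjusted p under 0.05, and "rose" and "fell" stand for calls. All adjusted p-values come from limma. With 3 against 3 libraries an exact permutation test cannot go below 0.1. The fit was tested on simulated data.

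Depth is approximate: it was read from the steps of TPM times effective length among low values. Of these values 95.7% lay within 0.1 of a whole read in Ad-GFP replicate 3 and 41.3% to 59.6% in the other libraries. The step read for Ad-shJP2 replicate 1 lay near the upper end of the range searched. GC content came from GENCODE transcripts of the GRCm38.p6 reference for 14025 tested genes, and promoters from RefSeq on that build, which is not the build of the files; 69 of 78 members had a promoter entry. The distance between facing starts is from the same reference.

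The members and gene lists were chosen with earlier results of these data known, so no test was made over the members as a set. Named members were the 5 largest called rises and falls of each subunit in each comparison with Ad-GFP, the 3 highest and 3 lowest levels of each subunit, members called in opposite directions, and Mrps18a and Mrps30; of other lists up to 2 genes per list, direction and comparison. Role groups, the window for facing genes, the motifs and other genes named in the text were chosen after values were seen. The NRF1 motif was also searched and is not reported here. Alternatives changed the pseudocount, the filter, the scaling, a GC and length correction (a spline with 5 degrees of freedom), the libraries fitted, the variance trend and a replicate block.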

Additional observations from a re-analysis of the deposited data

How the results depend on the processing

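Rises and falls below count members at a limma adjusted p under 0.05. In Ad-JP2 against Ad-GFP the 1 rise became 0 without a low-value filter, with quantile normalization and with a replicate block, and lay between 0 and 1 when 1 library was left out; the 4 falls became 8 with the GC and length correction and 8 with quantile normalization, while the falls over all genes went from 1.64% to 7.97% and 5.26%, and the members had 3 to 6 when 1 library was left out. In Ad-shJP2 against Ad-GFP median-of-ratios scaling gave 45 rises and 5 falls, where the GC and length correction gave 32 and 13 and leaving out 1 library gave 27 to 31 and 8 to 11. In Ad-JP2 against Ad-shJP2 the 7 higher members became 18 with the GC and length correction, 3 with quantile normalization and 4 with median-of-ratios scaling, while over all genes 40.3% became 29.1%, 28.3% and 33.3%. The median difference of large minus small subunit was 0.001 in Ad-shJP2 against Ad-GFP, -0.053 with the GC and length correction and -0.047 (without Ad-shJP2 replicate 1) to 0.019 when 1 library was left out; in Ad-JP2 against Ad-shJP2 it was -0.054 and turned to 0.058 with that correction. The ratio of summed TPM, by symbol 2.03, 2.03 and 2.05 in Ad-GFP, Ad-JP2 and Ad-shJP2, was 2.24, 2.22 and 2.28 by structure; by symbol, that of Ad-shJP2 was 2.02 with the GC and length correction and 2.04 with quantile normalization. Jph2 in Ad-shJP2 against Ad-GFP had 0.09 (adjusted p = 0.0545) with the GC and length correction, 0.00 (adjusted p = 0.993) with median-of-ratios scaling, -0.11 (adjusted p = 0.0165) with only the 6 libraries compared and -0.13 (adjusted p = 0.0243) with quantile normalization; it lay between -0.13 and -0.09 when 1 library was left out, and passed without Ad-JP2 replicate 1 or 3. With the GC and length correction Mrpl52 turned to 0.03 in Ad-JP2 against Ad-GFP, Mrpl1 to 0.05 and Mrpl55 to -0.04 in Ad-shJP2 against Ad-GFP, and in Ad-JP2 against Ad-shJP2 Mrpl1 to -0.23, Mrpl17 to 0.09, Mrpl2 to 0.02, Mrpl28 to 0.06, Mrpl54 to 0.15, Mrpl55 to 0.02 and Mrps23 to 0.03; Mrpl52 turned to 0.01 in Ad-shJP2 against Ad-GFP with median-of-ratios scaling. The cause of these changes was not tested. Same-numbered libraries of different groups deviated together at r from -0.113 to 0.11, so the numbers were not taken to pair them; the replicate block left the other counts of members within 1.5 times.

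Mrpl1, Mrpl23, Mrpl47 and Mrps31 rest on few reads, and by the approximate depth the Ad-shJP2 libraries were the shallower ones. Whether the differences concern the fibroblasts or other cells of the cultures was not tested.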

Other observations

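The table also holds rows for pseudogenes of the members, which the symbol rule leaves out. Mrpl23-ps1 stood at 113 ± 3.18 TPM (SD, n = 3) in Ad-GFP, 104 ± 5.17 TPM in Ad-JP2 and 95.6 ± 2 TPM in Ad-shJP2, far above Mrpl23 itself at 3.85, 2.8 and 3.47 TPM, and fell by 0.24 in Ad-shJP2 (limma adjusted p = 0.000752). Mrpl27-ps stood at 45.3 TPM in Ad-GFP beside 42.4 TPM for Mrpl27, and Mrpl48-ps at 32.1 TPM beside 27.7 TPM for Mrpl48. Neither passed in Ad-shJP2 against Ad-GFP (limma adjusted p = 0.319 and 0.886).

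Mrps35 stood at 14.7, 25.9 and 22.0 TPM in Ad-shJP2, against 19.6, 22.6 and 21.2 TPM in Ad-GFP. The low value was in the library with the lowest approximate depth.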
